A study of Mus musculus with 4 samples.

Results

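The sites described here are the 382 peaks that were called when biotin-tagged Foxo1 was captured on streptavidin from CD4+ T cells and that shared no base with any peak called after immunoprecipitation with a Foxo1 antibody. They were taken from a biotin list of 723 peaks and an antibody list of 2507 peaks, 3230 peaks in all. They made up 52.8% of the biotin list (exact Clopper-Pearson 95% interval 49.1 to 56.5%). The remaining 341 biotin peaks overlapped an antibody peak and are called shared below. Foxo1-bound DNA was sequenced after chromatin immunoprecipitation (ChIP-seq), with 1 library per group. The antibody library came from CD4+ cells of C57BL/6 mice and was made with the Abcam antibody Ab39670. The biotin library came from CD4+ cells of Foxo1tagBirA mice, written Foxo1tag/tagbirA in the design text and also listed as strain C57BL/6, and was made with streptavidin and no Foxo1 antibody. The labels do not state the age of the mice, the promoter behind BirA or any pooling of animals. Mouse genotype and capture method changed together between the libraries and cannot be told apart.

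Foxo1 is a forkhead transcription factor. Signalling through PI3K and AKT phosphorylates it and moves it out of the nucleus, so that it acts on DNA mainly in resting cells. In naive T cells it is known for sustaining genes of homing and survival, among them those for L-selectin, CCR7, KLF2 and the interleukin-7 receptor. BirA is a bacterial enzyme that joins biotin to a short peptide tag, and streptavidin binds biotin very tightly, which lets the tagged protein be recovered without an antibody against it. All positions follow the mouse build mm9 and count from 1. Genes, promoters and motifs at the peaks were not analysed here, since the reference tables at hand follow another build. CD4+ identity likewise has no marker in a peak list. Read depth behind the peaks is unknown.

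The peaks were chosen by the positions of the calls in both lists, so folds, widths, p-values and distances to antibody peaks are given as description and were not tested. The fold is the authors' own linear ratio for each peak, with its denominator not stated, and was read only within a list. Folds of biotin-only peaks centred on 5.08 (median; interquartile range 3.97 to 6.18), ran from 2.03 to 48.3, and 16 of the 382 (4.19%) exceeded 10. Shared biotin peaks had a median of 6.82, and 65 of 341 (19.1%) exceeded 10. The distributions overlapped over most of their range, as the plot of fold distributions shows. Above a fold of 20 both groups were thin, with 4 biotin-only and 6 shared peaks.

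**Figure D1:**
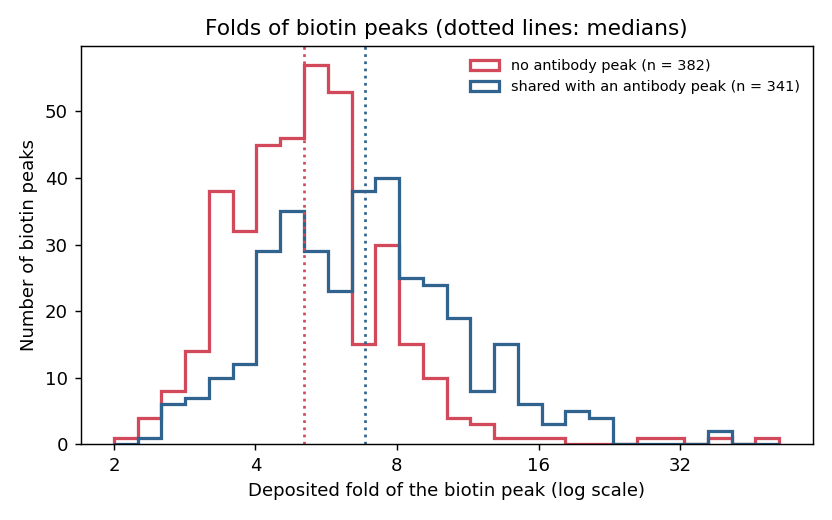
Number of biotin peaks (vertical axis) by deposited fold (horizontal axis, log scale), for the 382 peaks without an antibody peak and the 341 shared peaks, with dotted lines at the medians of 5.08 and 6.82. Most folds of both groups lie between 3 and 10, and 4 peaks without an antibody peak and 6 shared peaks lie above 20.

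The 4 biotin-only peaks of highest fold all lay on chromosome 17, in a pair of close groups. The first group held the highest folds of the whole biotin list, 48.3 for the peak at 39982236 to 39982545 and 40.55 for the peak at 39985257 to 39985720. The highest fold of a shared peak, 40.36, was close behind the latter. These peaks were 310 and 464 bp wide and 2711 bp apart. The nearest antibody peak lay 2893513 bp away and the nearest shared biotin peak 4650867 bp away. The second group held a peak of 54 bp at 36368266 to 36368319 with a fold of 28.0 and a peak of 6 bp at 36368448 to 36368453 with a fold of 30.5. An antibody peak at 36364029 to 36364181, with a fold of 4.42 in its own list, lay 4084 bp from this group. The other 14 biotin-only peaks of chromosome 17 had folds of 3.17 to 7.95 (median 4.93), all far below the 4. Whether these 4 peaks lie in duplicated or repeated sequence was not analysed here.

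Their folds also stood apart from their p-values. The p-values of the peaks at 39982236 and 39985257 were 1.2e-13 and 8.23e-14, and those of the peaks at 36368266 and 36368448 were 1.04e-13 and 4.33e-15. By p-value they ranked 498, 479, 494 and 395 among the 723 biotin peaks, against ranks of 1, 2, 6 and 5 by fold. Of the 224 biotin-only peaks with a p-value above 1e-14, 3 were among these 4, and the other 221 had a median fold of 4.41 and a highest fold of 9.34. Among the other 372 biotin peaks with a p-value above 1e-15, shared peaks included, the highest fold was 12.1, as the plot of fold against p-value shows. Shared peaks of higher fold, up to 40.36, had p-values of at most 1e-15 and fall outside this comparison.

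**Figure D2:**
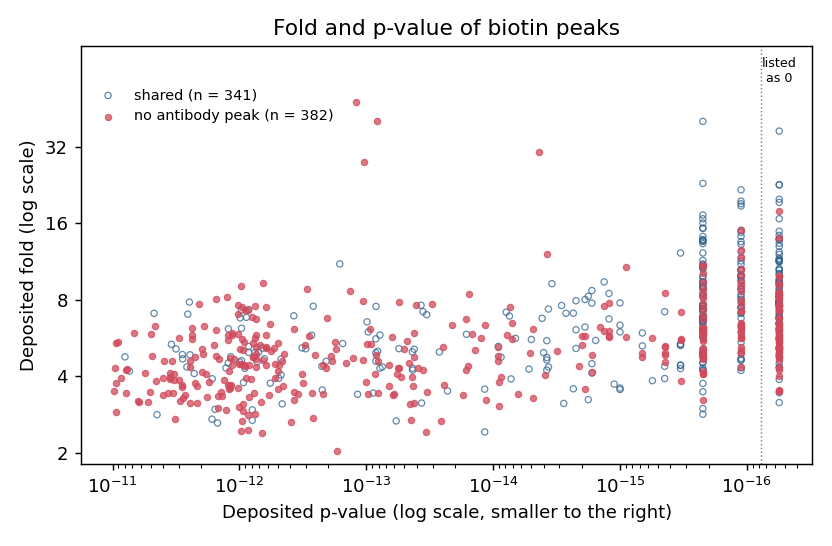
Deposited fold (vertical axis, log scale) against deposited p-value (horizontal axis, log scale, smaller to the right) of the biotin peaks, filled for the 382 without an antibody peak and open for the 341 shared; peaks with a p-value listed as 0 are drawn right of the dotted line. The 4 filled points with folds of 28.0 to 48.3 are the chromosome 17 peaks, and none of them is listed at 0.

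Another peak of the set lay on the mitochondrial chromosome at 15524 to 15596, with a width of 73 bp, a fold of 18.0 and a p-value listed as 0. It ranked 16 by fold in the biotin list and was the only mitochondrial peak in either list, so it has no distance to an antibody peak. The remaining 5 of the 10 highest folds were on other chromosomes. A peak on chromosome 11 (75780166 to 75780224) had a fold of 15.1 and directly adjoined an antibody peak. A peak on chromosome 1 (136456725 to 136456760) had a fold of 14.0 and a p-value listed as 0, and lay 2930 bp from an antibody peak that belongs to a shared pair. A peak on chromosome 12 (81214481 to 81214522), with a fold of 12.5, lay 1893 bp from an antibody peak of a shared pair. The peak on chromosome 4 (108952772 to 108952784), with a fold of 12.1, was 13 bp wide and 28291 bp from the nearest antibody peak. The peak on chromosome 3 (88314116 to 88314151), with a fold of 11.8, was 15 bp from one. Of these 5 nuclear sites, 4 therefore lay at most 2930 bp from an antibody call, unlike the highest pair on chromosome 17.

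Distances to the nearest antibody peak covered a wide range among the 381 nuclear peaks of the set. The median was 76381 bp (interquartile range 8227 to 267639 bp). An antibody peak lay within 1000 bp of 64 peaks, and a further 35 had one at up to 10 kb, so that 99 of 381 (26.0%, exact interval 21.7 to 30.7%) lay within 10 kb. At 10 to 100 kb there were 113 peaks, at 100 kb to 1 Mb there were 134, and 35 lay beyond 1 Mb. The plot of distances shows a broad maximum near 100 kb with a tail of close neighbours. As a yardstick from the same lists, the 341 shared biotin peaks had their nearest antibody peak other than the partner at a median of 75194 bp, with 81 (23.8%, exact interval 19.3 to 28.6%) within 10 kb. At short range the counts were further apart. An antibody peak lay within 100 bp of 28 biotin-only peaks (7.35%, 4.94 to 10.4%), against another antibody peak for 2 shared peaks (0.587%, 0.0711 to 2.10%). Within 200 bp there were 43 (11.3%) against 6 (1.76%), and within 1000 bp 64 (16.8%, 13.2 to 20.9%) against 39 (11.4%, 8.26 to 15.3%). A shared peak's other neighbour must be a second call beside its partner, so the short distances of the groups are not like for like, and no difference was tested.

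**Figure D3:**
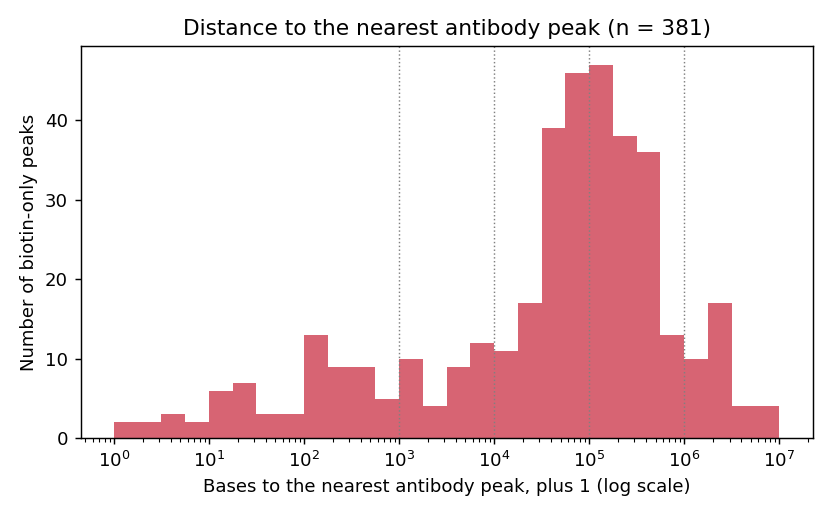
Number of biotin-only peaks (vertical axis) by bases to the nearest antibody peak plus 1 (horizontal axis, log scale) for the 381 nuclear peaks, with dotted lines at 1 kb, 10 kb, 100 kb and 1 Mb. The counts are highest around 100 kb, and 64 peaks lie at or left of 1 kb.

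Close neighbours had somewhat higher biotin folds than distant ones. The median fold was 5.81 for the 64 peaks within 1000 bp of an antibody peak (interquartile range 4.62 to 7.58). It was 5.21 for those above 1 kb and up to 10 kb (3.75 to 7.96), 5.09 at 10 to 100 kb (4.09 to 6.05), 4.75 at 100 kb to 1 Mb (3.93 to 5.66) and 4.62 beyond 1 Mb (3.48 to 6.19). The medians fell from band to band, but the interquartile ranges of all 5 bands overlapped. The share with a p-value listed as 0 did not follow the same order, at 10.9%, 17.1%, 13.3%, 16.4% and 11.4% from the nearest to the farthest band. These shares rest on 7, 6, 15, 22 and 4 peaks, all tied at the lowest listed value. Median widths were 72, 86, 76, 87 and 90 bp in that order.

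The 64 close neighbours faced 63 antibody peaks. Of the 64, 33 had the antibody peak at a higher position and 31 at a lower one. The gap had a median of 119 bp (interquartile range 19.5 to 286 bp), and summits were a median of 184 bp apart (range 19 to 829 bp), within 100 bp in 20 cases. The 63 antibody peaks had a median fold of 14.0 (range 3.73 to 35.96) in the antibody list, where all peaks had a median of 9.43, and 52 of the 63 lay above that median. In that list, antibody peaks of shared pairs had a median of 18.2 and those without a biotin partner 8.85. The antibody peak was itself part of a shared pair beside 12 of the 64 peaks. Beside the other 52 it had no biotin partner, so both lists held a call there without a common base.

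The peaks just inside the rule were near contacts. The chromosome 11 peak at 75780166 to 75780224 adjoined an antibody peak at 75780142 to 75780165 with 0 bases between them, and their summits were 32 bp apart. On chromosome 4 a peak at 153534999 to 153535016 (fold 9.40) likewise adjoined an antibody peak at 153535017 to 153535037, with summits 27 bp apart. On chromosome 11 a peak at 117824794 to 117824830 (fold 9.10) was 1 base from its antibody neighbour, and on chromosome 8 a peak at 11009429 to 11009495 (fold 4.37) was 2 bases away. Gaps of 4 bases followed. They belonged to a peak with a fold of 7.33 on chromosome 7 (121461105 to 121461114), a peak with a fold of 5.93 on chromosome 15 (79713837 to 79713931) and a peak with a fold of 5.66 on chromosome 3 (51287984 to 51288078). Just outside the rule, 4 biotin peaks met an antibody peak in 2 bp and counted as shared. Their folds were 7.82 on chromosome 13 (113217789 to 113217872), 17.3 on chromosome 5 (87233219 to 87233282), 18.7 on chromosome 2 (25110891 to 25110956) and 15.3 on chromosome 10 (80140996 to 80141081). A further pair of shared peaks met theirs in 4 bp, on chromosome 13 (53024986 to 53025049) with a fold of 9.30 and on chromosome 17 (29629917 to 29629956) with a fold of 10.4. No shared peak rested on a single base, and 8 rested on 5 bp or fewer.

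At the far end, a peak on chromosome X (22295535 to 22295618, fold 3.06) was 9286748 bp from any antibody peak. It was followed by a pair on chromosome 2, at 103637174 to 103637293 (fold 4.27) and 104334671 to 104334733 (fold 4.62), at 8468633 and 7771193 bp. A peak on chromosome 5 (45086322 to 45086357, fold 5.43) lay 7627542 bp away and a peak on chromosome 3 (6140872 to 6140991, fold 2.68) lay 3833545 bp away. None of these 5 exceeded a fold of 5.43, close to the median of the set.

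Another biotin-only peak lay within 10 kb of 16 peaks, in 8 pairs, and within 1000 bp of 6 peaks, in 3 pairs. Counting biotin peaks of either kind, 38 of 381 biotin-only peaks (9.97%) and 34 of 341 shared peaks (9.97%) had another within 10 kb. Besides the chromosome 17 pair at 36368266, a pair on chromosome 8 joined a peak at 125897532 to 125897647 (fold 4.41) to one at 125897784 to 125897937 (fold 4.09), 136 bp apart. A pair on chromosome 17 joined a peak at 66450804 to 66450891 (fold 5.07) to one at 66450967 to 66451044 (fold 4.51), 75 bp apart. The latter pair had an antibody peak at 66451332 to 66451429, 287 bp away, and was the only case of a pair of biotin-only peaks within 1000 bp of the same antibody peak. The other pairs within 10 kb, named after their values were seen, included a peak on chromosome 1 at 52170764 to 52170824 (fold 9.35) and its neighbour at 52176190 to 52176270 (fold 7.56). Both had p-values listed as 0, and the latter was 26 bp from an antibody peak with a fold of 14.2.

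When all peaks of both lists were joined over gaps of up to 10 kb, 277 of the 382 peaks (72.5%) formed a region by themselves. Another 77 (20.2%) shared a region with antibody peaks that had no biotin partner, 22 (5.76%) lay in a region with a shared pair, and 6 (1.57%) lay in 3 regions of biotin-only peaks. Shared pairs were alone in their region about as often, with 244 of 341 (71.6%, exact interval 66.4 to 76.3%) against 67.7 to 76.9% for the interval of the biotin-only share.

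Width and fold were linked within the set. Widths had a median of 81 bp (interquartile range 51 to 114.5 bp, range 1 to 464 bp). The 129 peaks of up to 60 bp had a median fold of 5.91, the 126 of 61 to 101 bp one of 5.19 and the 127 of 102 bp or more one of 3.98. Shared biotin peaks of the same widths had medians of 8.14 (n = 78), 7.15 (n = 133) and 4.72 (n = 130), higher in each class. Across the 382 peaks Spearman's rho of fold and width was -0.56, and across the shared peaks it was -0.53. These are descriptions across peaks of 1 library, which are not independent replicates, and both values come from the same peak call.

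**Figure D4:**
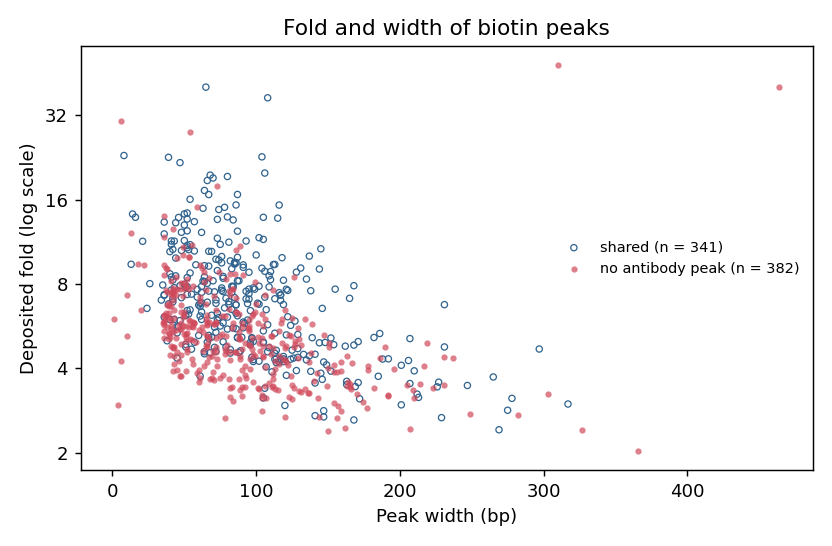
Deposited fold (vertical axis, log scale) against peak width in bp (horizontal axis) for biotin peaks, filled for the 382 without an antibody peak and open for the 341 shared. Folds fall with width except at the 2 filled points above 300 bp with folds of 48.3 and 40.5, and few points lie left of 36 bp.

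The widest members showed the contrast on chromosome 17 most clearly. Of the 18 peaks of at least 200 bp, the 16 outside the pair at 39982236 and 39985257 had folds of 2.03 to 4.92 (median 3.38). They included the lowest fold of the entire biotin list, 2.03, at a peak of 366 bp on chromosome 6 (117857335 to 117857700), a peak of 327 bp on chromosome 16 (55973694 to 55974020, fold 2.41) and a peak of 303 bp on chromosome 5 (92512550 to 92512852, fold 3.23). At the narrow end, 11 peaks were exactly 36 bp wide, the most frequent width of the set, and 11 were narrower. A width of 42 bp was nearly as frequent, with 10 peaks. Among the 341 shared peaks, 5 were 36 bp wide and 9 were narrower. The narrowest biotin-only peak covered 1 bp on chromosome 10 at 126602283, with a fold of 6.01, and was named after its value was seen.

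Large p-values were more frequent among biotin-only than among shared peaks, as described without a test. They were listed as 0 for 55 of 382 (14.4%, exact interval 11.0 to 18.3%) against 90 of 341 shared peaks (26.4%, 21.8 to 31.4%). They lay above 1e-12, nearest to the limit of the list, for 87 (22.8%, 18.7 to 27.3%) against 22 (6.45%, 4.09 to 9.61%). The smallest deposited p-values above 0 were 1.11e-16 and 2.22e-16, each tied over several biotin peaks. A listed 0 may thus be a rounded value close to these. Among the 55 biotin-only peaks listed as 0, folds ran from 3.48 to 18.0 with a median of 6.06, and among the 87 above 1e-12 they ran from 2.72 to 8.18 with a median of 4.09. Calls near the limit and calls far from it thus both occurred in the set. Summits lay at a median of 60.8% of the peak's width from its start, and at 59.5% in shared peaks.

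The rule sets no condition on the chromosome, but overlaps were sought within chromosomes, so each share also depends on the antibody peaks there. With that limit, biotin-only and shared counts on each chromosome were compared by a two-sided Fisher's exact test. The mitochondrial chromosome, with 1 biotin peak and no antibody peak, is among the 21 but could not differ. At a Benjamini-Hochberg adjusted p under 0.05, 0 of 21 chromosomes differed (0% called), and 2 had an unadjusted p under 0.05. These were chromosome 2, with 22 biotin-only and 34 shared peaks (39.3% biotin-only, exact interval 26.5 to 53.2%, p = 0.0371, adjusted p = 0.447), and chromosome 13, with 6 and 14 (30%, 11.9 to 54.3%, p = 0.0425, adjusted p = 0.447). Chromosome 11 carried the most biotin-only peaks, 35, beside 29 shared ones (54.7%). The highest nuclear share was on chromosome 19, with 14 of 20 (70.0%, 45.7 to 88.1%, p = 0.172, adjusted p = 0.902 by Fisher's exact test). The test compares these lists and not the conditions, since peaks of 1 library are not replicates.

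**Figure D5:**
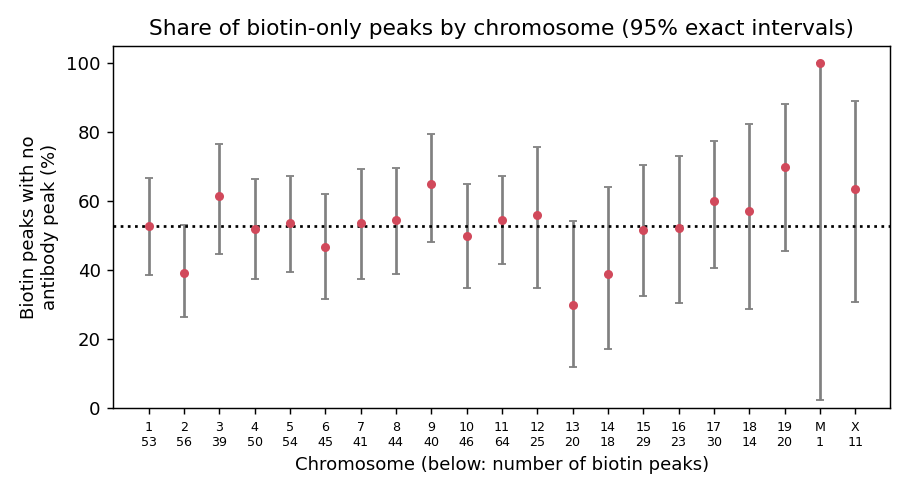
Percent of biotin peaks without an antibody peak (vertical axis) on each chromosome (horizontal axis, with the number of biotin peaks below), with exact 95% intervals and a dotted line at 52.8%. The intervals are wide, and those of all chromosomes reach the dotted line.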

How the data were processed

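ChIP-seq peak lists were used for the antibody and the biotin library, and the list attached to the antibody input was used only as a check. That list held 682 intervals, with 341 shared biotin peaks, 341 antibody peaks and 0 biotin-only peaks. It thus repeats calls of the ChIP lists and gives no input signal. The biotin input was not analysed here. CASAVA 1.4, Bowtie 0.12.7 and build mm9 are named in the submitters' processing notes, without their roles, and a peak caller is not named in the labels or headers. Both ChIP lists carry a false discovery rate of 0.05 in their names. Per the file headers, the authors gave each peak a fold, which is a linear ratio, and a p-value.

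Starts were raised by 1, since summits fell on 0 deposited starts and on the end of 10 biotin and 58 antibody peaks. A peak was shared at an overlap of at least 1 bp. A gap is the number of bases between 2 peaks. Python 3.11.15, pandas 2.3.3, NumPy 2.4.6 and SciPy 1.17.1 were used, and the overlap count and Fisher's exact test were tested on simulated data. Named peaks are, within the set, the 10 of highest fold, the 5 nearest to and 5 farthest from an antibody peak (all those tied at 4 bases were given), the 5 widest, the mitochondrial peak and every run with gaps of up to 1000 bp, and outside it the shared peaks of smallest overlap. The members and these rules were chosen with earlier results of these data known. Intervals are exact Clopper-Pearson 95% intervals and cover counting error over peaks only. Other definitions of a shared peak, shorter lists, another count of starts and lists without single peaks were tried as alternatives.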

Additional observations from a re-analysis of the deposited data

How the results depend on the processing

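Of 42 alternative values, 31 stayed within the 95% interval of the main value, or within 1.5 times it for a count. Of these 31, 10 came from leaving out the 4 peaks of highest fold or the mitochondrial peak. So few of the 382 peaks could hardly move a median, a share or the count, so these 10 say little about stability. Under the other settings, 21 values stayed within the limits and 11 did not. The comparisons with shared peaks were not recomputed under any of the 42 alternatives, apart from the chromosome counts. The number of biotin-only peaks was 318 to 431 when sharing was defined otherwise, with the antibody list limited to its 50% of highest fold, or with starts counted from 1 (380). Limiting the biotin list to its 50% of highest fold left 145 biotin-only peaks, with a median fold of 6.85, a median width of 54 bp, a median distance to an antibody peak of 49774 bp and 36.1% within 10 kb. The limited list is 50% as long, and biotin-only peaks made up less of it than the main 52.8%. The shift in fold follows from leaving out low folds. The share within 10 kb was 31.1% when sharing needed 50% of the shorter peak, 18.7% with centres within 200 bp and 11.0% with peaks within 1000 bp counted as shared, which follows from moving close neighbours in or out of the set. With peaks within 1000 bp counted as shared, the median distance was 108183 bp. With the antibody list limited to its 50% of highest fold, the median distance was 211100.5 bp and the share 16.98%, with fewer antibody peaks to be near. Leaving out the 4 peaks of highest fold (median fold 5.08) or the mitochondrial peak, both chosen after seeing the data, changed no result beyond those limits. Leaving out chromosome X and the mitochondrial chromosome again gave 0 chromosomes with an adjusted p under 0.05 by Fisher's exact test. The motif alternatives were not run, since they need the mm9 sequence. No paired analysis was possible because there was 1 library in a group, which also leaves no replicate to omit. Without read depth, a missing antibody peak cannot be told from antibody signal under the calling limit. False calls among the biotin-only peaks, from a list named for a false discovery rate of 0.05, were likewise not identified. The samples include no streptavidin library from cells without tagged Foxo1.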
